A study of Mus musculus with 2 samples.

Results

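The 39 genes described here encode the enzymes and transporters of glycolysis, of the entry of pyruvate into mitochondria and of the tricarboxylic acid (TCA) cycle. They are a list of named genes, chosen by symbol among the 55487 genes counted, and the rule for the list uses function and not a measured value. Glycolysis holds 18 of them, from the glucose transporters to lactate dehydrogenase, pyruvate entry holds 5, and the TCA cycle with its cytosolic partners holds 16. Of the 39, 35 reached 10 CPM (CPM is the UMI count divided by all UMIs of the cells summed, in parts per 1000000) over all T cells and were compared between cell types. The other 4 were Hk2 at 8.57 CPM, Idh1 at 5.56 CPM, Pfkm at 3.67 CPM and Aldoc at 3.42 CPM. A further gene ID that carries the symbol Aldoa had 0 UMIs, and all Aldoa counts came from its main ID.

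The cells were CD4+ T cells of C57BL/6 Foxp3.Cre-YFP mice, in which the Foxp3 promoter drives the Cre recombinase and therefore limits deletion to regulatory T cells (Tregs). Treg-bmal1KO mice lacked in Tregs the clock transcription factor Bmal1, and Treg-bmal1WT mice kept it. Cells were taken at zeitgeber times ZT12 and ZT0 from visceral adipose tissue (VAT, 34000 cells sorted) and spleen (32000 cells sorted) of mice kept in reverse-light rooms, marked with antibody hashtags and then pooled into 1 single-cell 3′ expression library and 1 hashtag library. The sources used here do not give the age or number of the mice. The hashtags carry numbers only, so tissue, genotype and time cannot be compared, and all comparisons are between T cell types. Since it is unknown what each hashtag stands for, hashtags were not treated as replicates and no test was run: intervals are exact 95% intervals that cover counting error only, and values are given for each hashtag.

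Glycolysis splits glucose into pyruvate in the cytosol, and lactate dehydrogenase can turn that pyruvate into lactate to keep the pathway running. Pyruvate that enters mitochondria through the carrier Mpc1/Mpc2 is oxidised by pyruvate dehydrogenase, which pyruvate dehydrogenase kinases such as Pdk1 inhibit, and feeds the TCA cycle. Resting naive T cells are known to rely on oxidative metabolism, and T cells that are activated and divide are known to raise glycolysis. Tregs have been described as depending less on glycolysis than effector T cells.

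Each cell was placed in a T cell gate from its own UMIs of marker genes, none of which is a member. The gates were proliferating cells (213 cells; at least 2 of Mki67, Top2a, Birc5, Cdk1 and Ccna2), ST2 Tregs (1906 cells; Il1rl1, the gene of the interleukin-33 receptor ST2, with Foxp3, Ikzf2 or Il2ra), other Tregs (830 cells), Ifng Th1 cells (933 cells), Th1 cells without Ifng (3274 cells), naive cells (1648 cells) and the remaining ungated T cells (3301 cells). The Treg names follow from this rule and are not proof of identity: a UMI of Foxp3, the defining Treg factor, was found in 18.2% of ST2 Tregs and 41.2% of other Tregs, and cells of the non-dividing gates outside them have none by construction. The 12105 gated cells held 41191395 UMIs. Median UMIs per cell ran from 2757 in ungated T cells to 3814 in naive cells, except for 8002 in proliferating cells. Doublets of cells with the same hashtag, estimated at 8.78% of single-tag barcodes, cannot be seen by the tags. Ribosomal protein genes took 24.6% of UMIs in proliferating cells, 25.2% in ST2 Tregs, 28.1% in Ifng Th1 cells, 29.3% in other Tregs, 30.8% in Th1 cells without Ifng and 41.5% in naive cells. This difference moves every CPM ratio against naive cells: the median log2 ratio over all 7526 genes compared was 0.24 in ST2 Tregs over naive cells, and -0.13 when ribosomal protein and mitochondrial genes were left out of the totals. Ratios against naive cells are therefore read against that median. Each gated cell held at most 1 UMI of the markers of each of the other lineages, and macrophage markers summed to 19.3 to 33.1 CPM and B cell markers to 2.63 to 14.1 CPM across gates. Erythroid markers were not limited and summed to 58.6 CPM in proliferating cells, 248 CPM in ST2 Tregs, 94.2 CPM in Ifng Th1 cells, 2012 CPM in other Tregs, 1541 CPM in Th1 cells without Ifng and 538 CPM in naive cells. The part of these markers in the results was not tested.

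Summed over its 18 genes, glycolysis was highest in proliferating cells, at 4703 CPM (4605 to 4802). It was 2956 CPM (2916 to 2996) in ST2 Tregs, 2712 CPM (2653 to 2771) in Ifng Th1 cells, 2650 CPM (2591 to 2711) in other Tregs, 2493 CPM (2462 to 2523) in Th1 cells without Ifng and 1870 CPM (1836 to 1903) in naive cells. These levels pool hashtags that differ in level and in their share of each gate. Within hashtags, proliferating cells were highest in all 3 that could be read and naive cells lowest in all 6, but the order of the gates between them was not kept: other Tregs were above ST2 Tregs in hashtags 2, 3, 5 and 6, and Ifng Th1 cells were above ST2 Tregs in hashtags 5 and 6. The TCA cycle, summed over 16 genes, was 1726 CPM (1667 to 1787) in proliferating cells, and its level in the other gates lay in a narrow band. That band ran from 1170 CPM (1130 to 1210) in other Tregs and 1166 CPM (1141 to 1191) in ST2 Tregs to 1013 CPM (988 to 1038) in naive cells. The 5 pyruvate entry genes summed to 450 CPM (420 to 482) in proliferating cells and 432 CPM (416 to 448) in naive cells, and to between 382 and 394 CPM in the Treg and Th1 gates. This sum includes Pdk1, whose kinase inhibits pyruvate dehydrogenase and which was highest in naive cells, as given below. The sum is therefore not a level of the carrier and dehydrogenase genes alone.

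**Figure D1:**
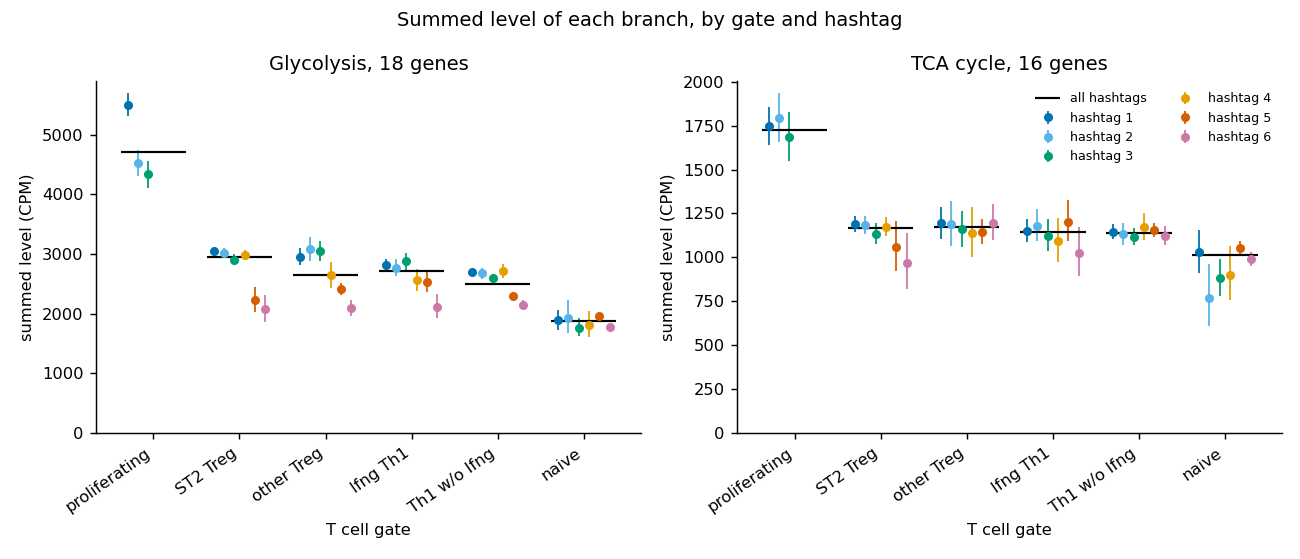
Summed level (CPM) of the 18 glycolysis genes and the 16 TCA cycle genes in 6 T cell gates; points are hashtags with at least 30 cells, bars are exact 95% Poisson intervals and black lines pool all hashtags. Proliferating cells stand highest in both panels, and hashtags 5 and 6 lie below hashtags 1 to 4 for glycolysis in ST2 Tregs and in Th1 cells without Ifng.

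The balance between the branches does not depend on the UMI total. Glycolysis made up 73.1% (72.3 to 73.9) of the UMIs of glycolysis and TCA cycle genes in proliferating cells, 71.7% (71.2 to 72.2) in ST2 Tregs, 70.3% (69.5 to 71.2) in Ifng Th1 cells, 69.4% (68.5 to 70.2) in other Tregs, 68.6% (68.1 to 69.1) in Th1 cells without Ifng and 64.9% (64.2 to 65.5) in naive cells. Gapdh, which oxidises glyceraldehyde 3-phosphate and is the most counted member, took 35.3% of glycolysis UMIs in proliferating cells and 23.0% in naive cells. Without Gapdh the share of glycolysis was 63.8% (62.8 to 64.8) in proliferating cells, 64.5% (63.9 to 65.1) in ST2 Tregs and 58.7% (57.9 to 59.5) in naive cells. Within hashtags the order was not kept: without Gapdh, the share in naive cells of hashtag 2 (34 cells) was 66.1%, above the 64.7% of ST2 Tregs, and in hashtag 6 it was 55.5% in other Tregs and 58.2% in naive cells. ST2 Tregs were above naive cells in the other 5 hashtags, with 60.9% to 64.8% in ST2 Tregs and 57.2% to 61.2% in naive cells.

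The hashtags differed within gates. ST2 Tregs had summed glycolysis of 3047, 3015, 2905, 2984, 2226 and 2074 CPM in hashtags 1 to 6, in that order. Other Tregs had 2953, 3086, 3046, 2644, 2408 and 2087 CPM and Ifng Th1 cells 2817, 2763, 2875, 2561, 2529 and 2116 CPM. Th1 cells without Ifng had 2689, 2673, 2594, 2708, 2297 and 2148 CPM in the same order. Naive cells had 1892, 1931, 1765, 1811, 1952 and 1768 CPM. Hashtags 5 and 6 were the lowest in ST2 Tregs, other Tregs, Ifng Th1 cells and Th1 cells without Ifng but not in naive cells. Ribosomal protein genes took more UMIs in hashtags 5 and 6 (32.2% and 35.1% of ST2 Treg UMIs, against 24.2% to 26.3% in hashtags 1 to 4), and the part of this in the lower levels was not tested. Naive cells came mostly from hashtags 5 and 6 (835 and 556 of 1648 cells) and ST2 Tregs mostly from hashtags 1 to 4 (58 and 36 of 1906 cells in hashtags 5 and 6), so ratios are given within hashtags beside the pooled ratio.

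**Figure D2:**
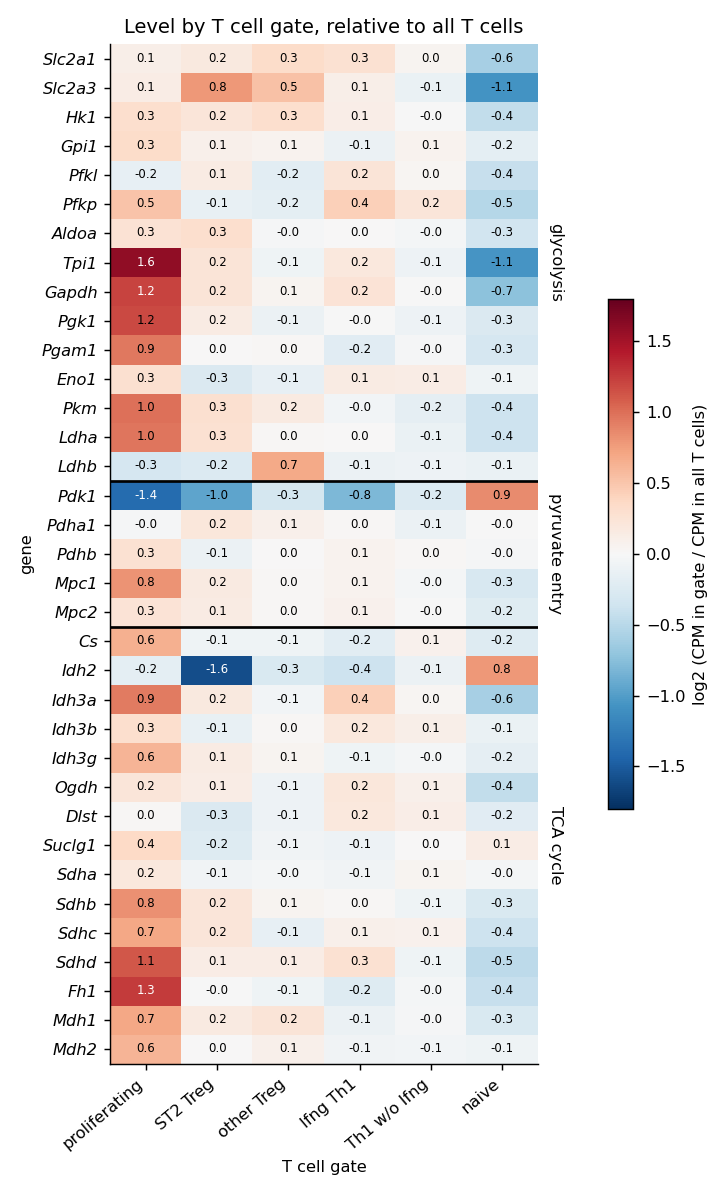
log2 ratio of each member's CPM in a gate over its CPM in all T cells, for the 35 members with at least 10 CPM, with glycolysis above, pyruvate entry between the black lines and the TCA cycle below. The proliferating column is red for most of glycolysis from Tpi1 downwards and for much of the TCA cycle, and Pdk1 and Idh2 have the opposite pattern to glycolysis in naive cells and ST2 Tregs.

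A member was called higher or lower between gates when the pooled CPM ratio was at least 1.5-fold and had the same sign in every hashtag with at least 30 cells on both sides. In proliferating cells over all other T cells, a comparison of 146 and 5795 cells in hashtags 1 to 3, 15 of the 35 members were called higher, against 14.3% of all genes compared, and 1 was called lower, against 14.6% of all genes. The median log2 ratio was 0.72 for the 15 measured TCA cycle genes and 0.30 for the 15 measured glycolysis genes, against -0.01 over all genes. All 15 TCA cycle genes and 12 of 15 glycolysis genes were above 0.

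In ST2 Tregs over naive cells, 6 of 35 members were called higher, against 10.7% of all genes, and 2 were called lower, against 2.56% of all genes. Glycolysis gave 5 of the 6 higher calls, with a median log2 ratio of 0.64, and the TCA cycle 1, with a median of 0.31. The all-gene median was 0.24. These medians are of pooled ratios, and the gap between the gates differed by hashtag. Summed glycolysis in ST2 Tregs and naive cells was 2226 and 1952 CPM in hashtag 5 and 2074 and 1768 CPM in hashtag 6. In hashtags 1 to 4 it was 2905 to 3047 CPM and 1765 to 1931 CPM. The TCA cycle sum was 1057 and 1055 CPM in hashtag 5 and 968 and 989 CPM in hashtag 6. In hashtags 1 to 4 it was 1133 to 1188 CPM and 771 to 1027 CPM. When ribosomal protein and mitochondrial genes were left out of the totals, the glycolysis median was 0.28 and the TCA cycle median -0.053, against the all-gene median of -0.13, and the calls were 2 higher (Slc2a3 and Gapdh) and 2 lower (Pdk1 and Idh2), against 5.37% and 5.75% of all genes.

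In other Tregs over naive cells, 2 members were called higher (10.1% of all genes) and 2 lower (1.65% of all genes). In Th1 cells without Ifng over naive cells, 2 were called higher (8.44% of all genes) and 2 lower (1.22% of all genes). These share the naive cells with the comparison of ST2 Tregs. The higher calls were lost with ribosomal protein and mitochondrial genes left out of the totals, whereas Pdk1 and Idh2 were still called lower, as they were with median-of-ratios size factors. With hashtag 5 left out of both sides, which also removes 1 of the signs that a call needs, 7 members were called in each comparison, 5 higher and 2 lower. Of all genes, 13.1% were then called higher and 2.68% lower in other Tregs, and 10.4% and 1.73% in Th1 cells without Ifng. Against Th1 cells without Ifng, ST2 Tregs had 1 member called higher (3.41% of all genes) and 0 lower (1.95% of all genes). Without hashtag 5, 1 was called higher and 1 lower, against 4.64% and 3.31% of all genes. Without hashtag 6 it was also 1 higher and 1 lower, against 5.12% and 3.39%. Against other Tregs, ST2 Tregs had 0 called higher (1.12% of all genes) and 2 lower (1.26% of all genes). In Ifng Th1 cells over Th1 cells without Ifng, 0 members were called higher (0.412% of all genes) or lower (0.279% of all genes). Without hashtag 1, 2 or 3, 1 was called lower, against 0.585%, 0.359% and 0.438% of all genes in that order. With all hashtags, the members' log2 ratios in this comparison ran from -0.57 for Pdk1 to 0.39 for Idh3a.

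**Figure D3:**
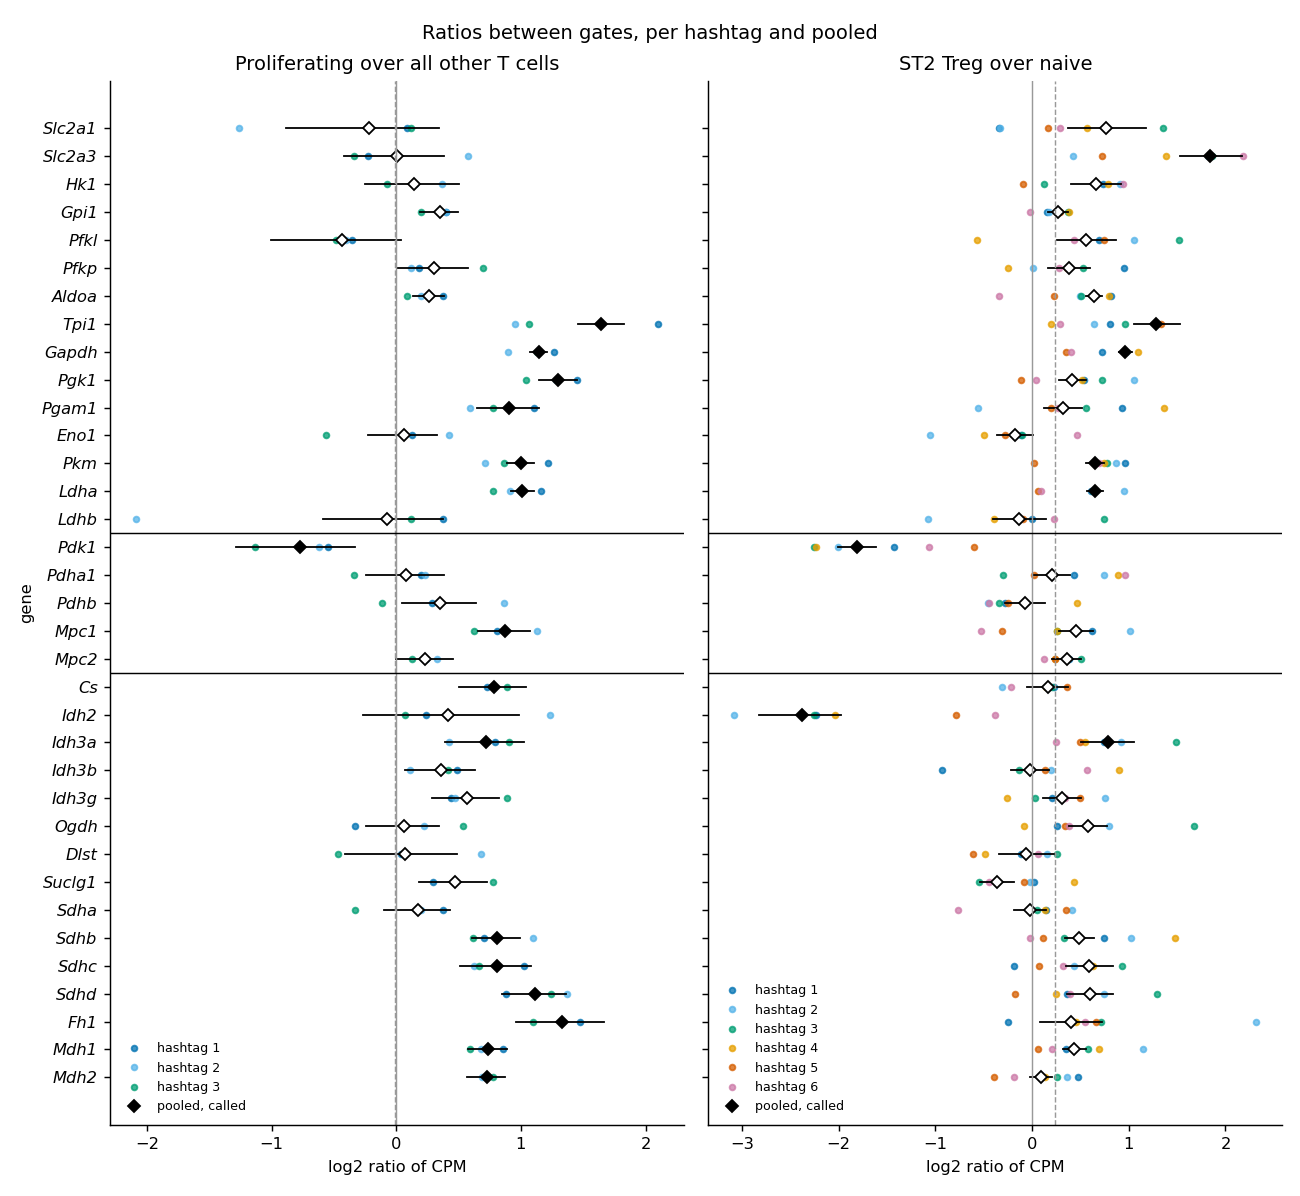
log2 ratios of CPM for the 35 members in proliferating cells over all other T cells (left) and in ST2 Tregs over naive cells (right); coloured points are hashtags, diamonds the pooled ratio (filled where called) with its 95% counting interval, and dashed lines the median of all genes. On the left, calls above 0 are Tpi1, Gapdh, Pgk1, Pgam1, Pkm, Ldha, Mpc1 and much of the TCA cycle, and Pdk1 is called below 0. On the right, Slc2a3, Tpi1, Gapdh, Pkm, Ldha and Idh3a are called above 0 and Pdk1 and Idh2 below 0.

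Glucose enters T cells through the transporters encoded by Slc2a1 (GLUT1) and Slc2a3 (GLUT3). Slc2a3 had 59.9, 58.5, 51.6, 59.8, 29.1 and 46.1 CPM in ST2 Tregs of hashtags 1 to 6, against 15.2, 39.0, 12.7, 19.7, 18.9 and 10.7 CPM in naive cells of the same hashtags. The ST2 Tregs were higher within every hashtag, although the value of hashtag 5 in ST2 Tregs was below that of hashtag 2 in naive cells, which rests on 34 cells. The pooled log2 ratio was 1.84 (1.53 to 2.18), with 0.42 to 2.18 over hashtags. Over Th1 cells without Ifng, which had 40.1, 27.0, 34.2, 40.4, 21.5 and 23.6 CPM, Slc2a3 was the only member called in ST2 Tregs, at a log2 ratio of 0.90 (0.68 to 1.12; 0.54 to 1.10 over hashtags). The median of the log2 ratios over hashtags was 0.58, just under 1.5-fold. With a Foxp3 UMI required of Tregs, which left 4 hashtags, the log2 ratio was 0.45 and Slc2a3 was not called, while 1 member was called lower. Pooled over hashtags, Slc2a3 was highest in ST2 Tregs and other Tregs, so its level was not particular to ST2 Tregs. It was not called between these gates, where the highest pooled log2 ratio of a measured glycolysis gene was 0.32.

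Slc2a1 was called in none of the 7 comparisons. Its level was 20.9 CPM (17.7 to 24.5) in ST2 Tregs, 23.3 CPM (17.98 to 29.6) in other Tregs, 19.9 CPM (14.0 to 27.4) in proliferating cells and 12.2 CPM (9.69 to 15.2) in naive cells. In proliferating cells Slc2a3 was 43.7 CPM, against 43.9 CPM in all other T cells of the same hashtags, a log2 ratio of 0.01 (-0.42 to 0.38). Neither transporter was called in proliferating cells.

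The first steps in the cytosol, which trap and rearrange glucose, had few calls. Hk1, a hexokinase that phosphorylates glucose, was 48.0 CPM in ST2 Tregs and 30.4 CPM in naive cells, with a log2 ratio of 0.66 (0.41 to 0.92) but a negative ratio in hashtag 5. Gpi1, the isomerase of glucose 6-phosphate, was 246 CPM in ST2 Tregs and 204 CPM in naive cells. The phosphofructokinase genes Pfkl and Pfkp, whose enzymes commit the sugar to glycolysis, and Aldoa, the aldolase that splits it, were called in none of the 7 comparisons. Aldoa had 444, 420, 402, 392, 320 and 191 CPM in ST2 Tregs of hashtags 1 to 6 and 250, 293, 283, 223, 276 and 246 CPM in naive cells. The order was turned in hashtag 6 only, where ST2 Tregs numbered 36. In proliferating cells Aldoa was 469, 440 and 363 CPM in hashtags 1 to 3, a pooled log2 ratio of 0.26 (0.13 to 0.38) over all other T cells.

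Most glycolysis calls were made for the lower steps of the pathway. Tpi1, the isomerase of the triose phosphates, had 332, 139 and 147 CPM in proliferating cells of hashtags 1 to 3, against 77.4, 72.4 and 70.9 CPM in all other T cells. Hashtag 1 was far above the other two among proliferating cells, and the groups did not overlap. The pooled log2 ratio was 1.64 (1.46 to 1.82), with 0.95 to 2.10 over hashtags. In ST2 Tregs Tpi1 had 96.1, 68.4, 70.6, 70.9, 72.7 and 32.9 CPM, against 53.1, 39.0, 34.9, 59.1, 29.6 and 29.4 CPM in naive cells. ST2 Tregs were higher within every hashtag, and those of hashtag 6 lay inside the naive range. The log2 ratio was 1.28 (1.05 to 1.53), with 0.19 to 1.34 over hashtags, so the pooled ratio lay near the top of the hashtags' own ratios. With ribosomal protein and mitochondrial genes left out of the totals it was 0.92, against the all-gene median of -0.13, and was not called because not every hashtag kept the sign.

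Gapdh had 1917, 1495 and 1639 CPM in proliferating cells of hashtags 1 to 3, against 797, 804 and 750 CPM in all other T cells, and the groups lay far apart. The log2 ratio was 1.14 (1.08 to 1.21). ST2 Tregs had 863, 853, 857, 848, 577 and 513 CPM, against 519, 429, 438, 394, 453 and 391 CPM in naive cells of hashtags 1 to 6. Every hashtag was higher in ST2 Tregs, by less in hashtags 5 and 6, and only ST2 Tregs of hashtag 6 (513 CPM) fell inside the range of the naive cells. The log2 ratio was 0.96 (0.90 to 1.03), with 0.35 to 1.09 over hashtags. Gapdh was also called higher over naive cells in other Tregs (742 against 431 CPM pooled, log2 ratio 0.79) and in Th1 cells without Ifng (711 against 431 CPM pooled, log2 ratio 0.72). Between ST2 Tregs and Th1 cells without Ifng its log2 ratio was 0.24 (0.19 to 0.29) pooled but between -0.08 and 0.16 within hashtags, so the pooled ratio lay above that of every hashtag.

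Pgk1 makes the first ATP of glycolysis, and Pgam1 moves the phosphate group of the next intermediate. Pgk1 had 350, 331 and 282 CPM in proliferating cells, against 129, 137 and 137 CPM in all other T cells of hashtags 1 to 3, a log2 ratio of 1.30 (1.14 to 1.45). Pgam1 had 142, 86.3 and 102 CPM in proliferating cells, against 66.4, 58.1 and 60.3 CPM in all other T cells, a log2 ratio of 0.90 (0.65 to 1.15). In both genes the proliferating cells of every hashtag were above every hashtag of the other T cells. Neither was called in another comparison.

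Eno1, an enolase, was called in none of the 7 comparisons. It had 90.0, 120 and 59.9 CPM in proliferating cells of hashtags 1 to 3, against 83.0, 90.2 and 90.6 CPM in all other T cells, a log2 ratio of 0.06 (-0.23 to 0.33). In ST2 Tregs over naive cells its ratio was -0.18 (-0.36 to 0.01). The files also count Eno1b, a near-identical copy, at 1.67 to 3.76 CPM across gates, and the sources used here do not say how reads shared by both were handled, so the Eno1 level is uncertain.

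Pkm, the pyruvate kinase that makes pyruvate, and Ldha, which turns pyruvate into lactate, had similar ratios. Pkm had 698, 560 and 545 CPM in proliferating cells, against 301, 342 and 301 CPM in all other T cells of hashtags 1 to 3, a log2 ratio of 0.998 (0.89 to 1.10). Ldha had 900, 808 and 653 CPM in proliferating cells, against 402, 429 and 381 CPM in all other T cells, a log2 ratio of 1.01 (0.92 to 1.10). Both groups were apart in every hashtag for both genes.

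In ST2 Tregs, Pkm had 351, 401, 345, 368, 247 and 355 CPM, against 178, 215, 200, 217, 246 and 222 CPM in naive cells of hashtags 1 to 6. Ldha had 460, 480, 433, 488, 315 and 296 CPM in ST2 Tregs, against 300, 244, 279, 308, 303 and 281 CPM in naive cells. The ratio was close to 0 in hashtag 5 for Pkm (0.02) and in hashtags 5 and 6 for Ldha (0.07 and 0.09), and the pooled log2 ratio was 0.65 for each. Neither call was kept with ribosomal protein and mitochondrial genes left out of the totals (0.29 for Pkm and 0.28 for Ldha).

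**Figure D4:**
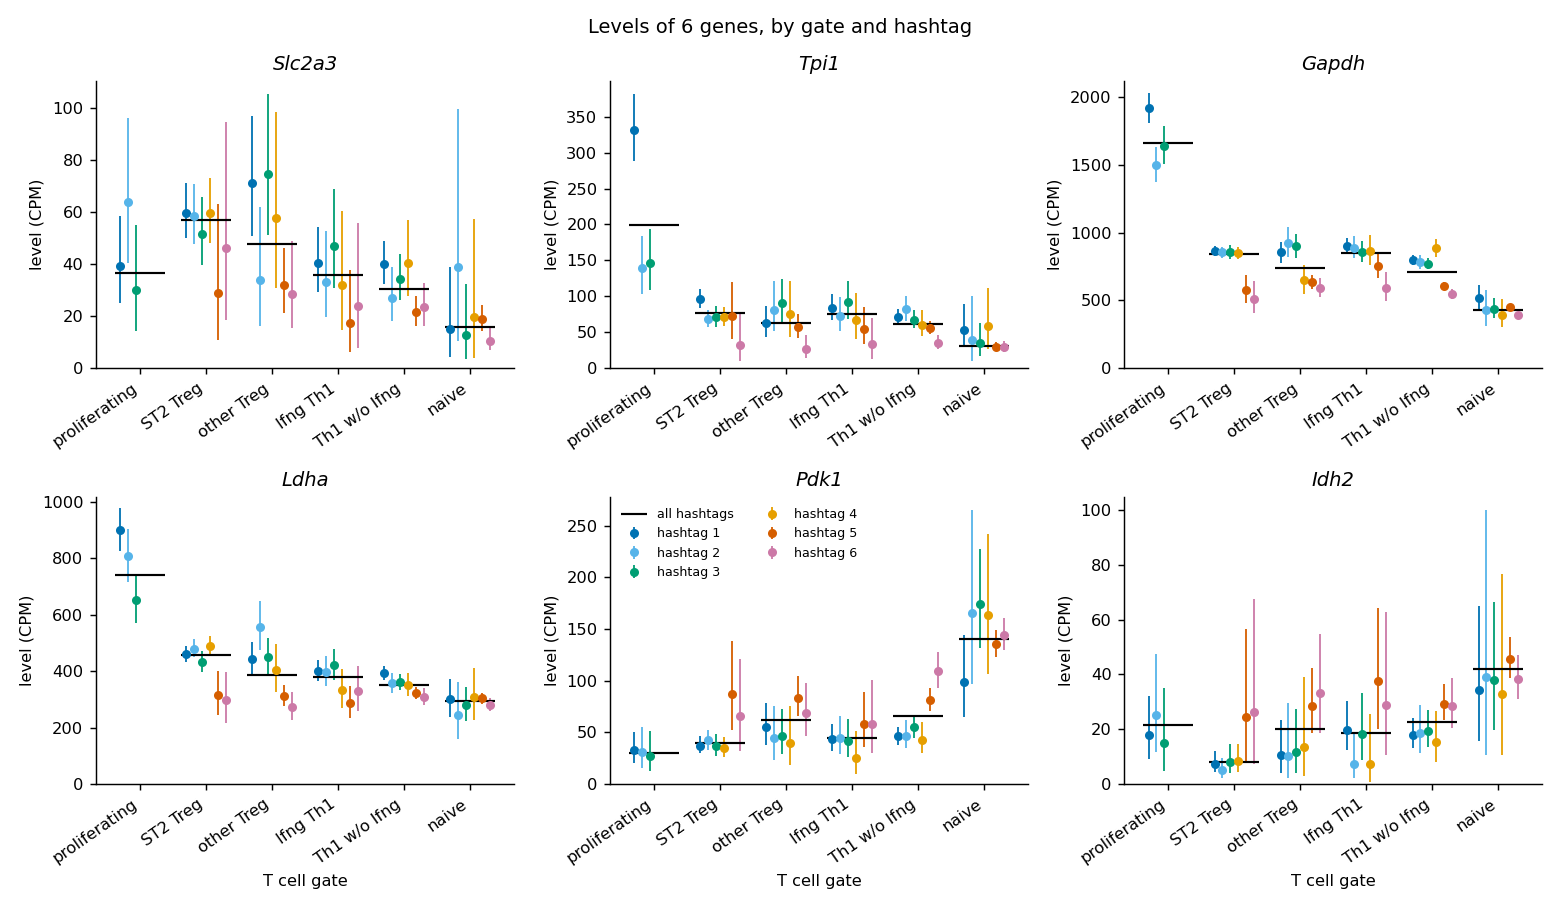
Levels (CPM) of 6 members by gate; points are hashtags with at least 30 cells, bars exact 95% Poisson intervals and black lines all hashtags pooled, including in proliferating cells the 3 hashtags with fewer cells. Tpi1, Gapdh and Ldha are highest in proliferating cells, Slc2a3 in ST2 Tregs and other Tregs, and Pdk1 and Idh2 in naive cells, with hashtags 5 and 6 above the others for Idh2 in every gate that holds them except naive cells.

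Ldhb encodes the other lactate dehydrogenase subunit, which favours the turning of lactate back into pyruvate. It had 32.0, 25.2, 34.1, 37.1, 33.9 and 32.9 CPM in ST2 Tregs, against 67.7, 30.5, 56.01, 39.99, 70.8 and 64.1 CPM in other Tregs of hashtags 1 to 6. ST2 Tregs were lower within every hashtag, although hashtag 2 of the other Tregs lay inside the ST2 Treg range. The log2 ratio was -0.92 (-1.21 to -0.63), with -1.09 to -0.17 over hashtags. It was -0.75 with a Foxp3 UMI required of Tregs, on 3 hashtags, and -0.64 with doublets kept, and was called in neither. As a share of Ldha and Ldhb UMIs, Ldhb was 4.0% (3.0 to 5.1) in proliferating cells, 6.5% (5.7 to 7.3) in ST2 Tregs, 8.5% (7.0 to 10.1) in Ifng Th1 cells, 9.2% (8.3 to 10.1) in Th1 cells without Ifng, 10.6% (9.3 to 12.01) in naive cells and 13.5% (11.7 to 15.5) in other Tregs, with 5.2% to 19.1% over hashtags in the last of these.

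Shares of isozymes also differed for other pairs. Slc2a3 made up 73.2% (69.3 to 76.8) of the Slc2a1 and Slc2a3 UMIs in ST2 Tregs and 56.4% (48.8 to 63.7) in naive cells, with 71.3% to 77.8% in ST2 Tregs and 36.4% to 66.7% in naive cells over hashtags. Hk2, the hexokinase isoform that T cell activation is known to induce, made up 24.2% (18.1 to 31.1) of Hk1 and Hk2 UMIs in Ifng Th1 cells, 21.2% (15.5 to 27.8) in other Tregs, 18.8% (12.2 to 27.1) in proliferating cells, 17.3% (13.8 to 21.3) in ST2 Tregs and 5.8% (3.0 to 9.9) in naive cells. The naive value rests on 12 Hk2 UMIs in 1648 cells, all from hashtags 5 and 6, where the share was low in other gates as well. In hashtag 6 it was 0% in ST2 Tregs, 5.6% in other Tregs, 6.4% in Th1 cells without Ifng and 9.1% in naive cells, and in hashtag 5 it was 0% in ST2 Tregs, 5.0% in Ifng Th1 cells, 7.9% in Th1 cells without Ifng and 5.2% in naive cells. The order was therefore mixed within these hashtags. Of the gates given, naive cells had the highest share in hashtag 6, and only Th1 cells without Ifng were above them in hashtag 5. With 12 Hk2 UMIs in naive cells this order is imprecise, and hashtags 1 to 4 held 0 Hk2 UMIs in naive cells. Of the phosphofructokinase UMIs, Pfkp took 76.1% (70.0 to 81.4) in proliferating cells and 60.7% (56.9 to 64.3) in ST2 Tregs. Aldoa took 98.6% to 99.4% of Aldoa and Aldoc UMIs in every gate.

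**Figure D5:**
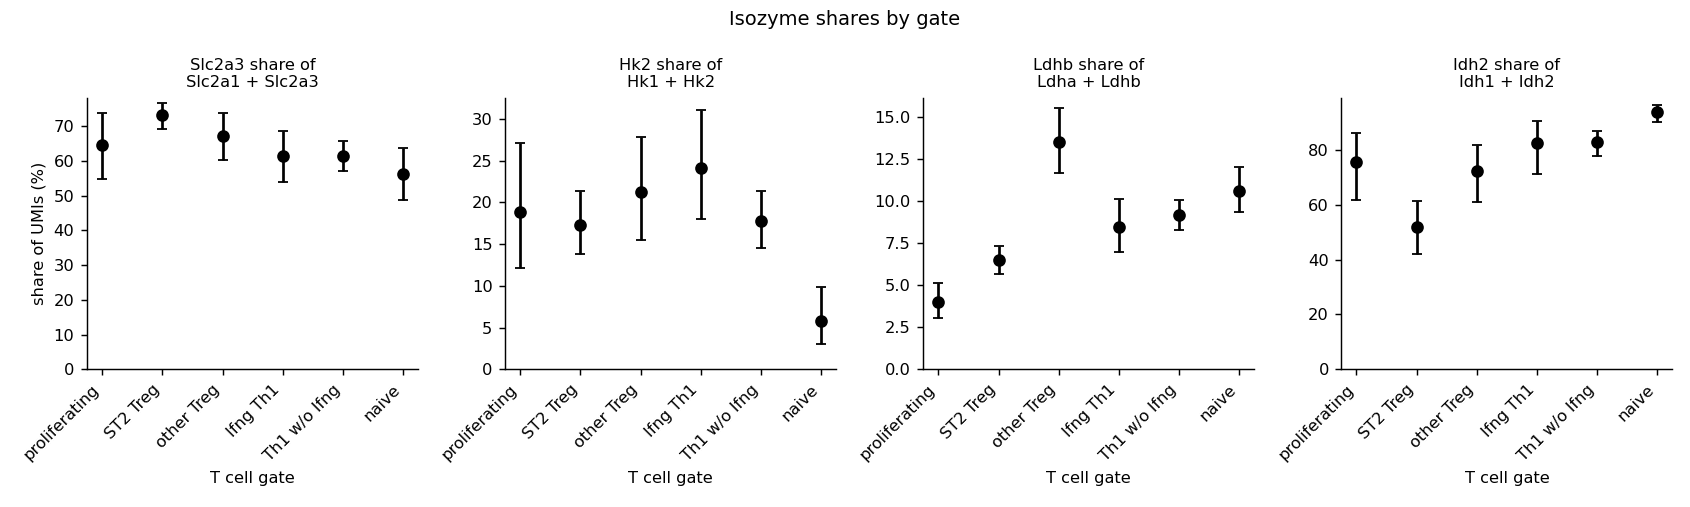
Share (%) of the UMIs of an isozyme pair that came from Slc2a3, Hk2, Ldhb or Idh2, by T cell gate with all hashtags pooled; bars are exact 95% binomial intervals. In these pooled values Hk2 is lowest in naive cells (5.8%), Ldhb highest in other Tregs (13.5%) and Idh2 lowest in ST2 Tregs (51.8%), but the gates draw on different hashtags and the order for Hk2 was not kept within hashtags 5 and 6.

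Windows are shown for 4 members that were not all called in the same comparison. Ldha and Pgk1 were called higher in proliferating cells over all other T cells, and Pdk1 and Idh2 lower in ST2 Tregs over naive cells. Pdk1 was also called lower in proliferating cells, where Idh2 was not called. The 5-base core ACGTG, which the hypoxia-inducible factor is known to bind, is in capitals on either strand. ACGTG also lies inside CACGTG, the E-box to which Myc and clock factors such as Bmal1 are known to bind, and then the whole E-box is in capitals. The windows are the 250 bases before a RefSeq start, build GRCm38.p6, read on the strand of the gene: Ldha at chr7:46845554-46845803 (+), Pgk1 at chrX:106186850-106187099 (+), Pdk1 at chr2:71872974-71873223 (+) and Idh2 at chr7:80115351-80115600 (-).
Ldha: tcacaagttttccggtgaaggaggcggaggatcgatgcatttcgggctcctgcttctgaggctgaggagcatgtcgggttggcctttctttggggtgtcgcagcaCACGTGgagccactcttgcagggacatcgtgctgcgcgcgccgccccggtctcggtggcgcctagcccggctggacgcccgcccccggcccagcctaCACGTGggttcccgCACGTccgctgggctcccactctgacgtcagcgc
Pgk1: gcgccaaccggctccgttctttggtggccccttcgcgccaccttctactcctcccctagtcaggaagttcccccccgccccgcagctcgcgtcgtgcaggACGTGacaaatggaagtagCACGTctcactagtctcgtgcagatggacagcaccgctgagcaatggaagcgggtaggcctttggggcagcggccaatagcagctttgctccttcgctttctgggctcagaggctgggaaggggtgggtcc
Pdk1: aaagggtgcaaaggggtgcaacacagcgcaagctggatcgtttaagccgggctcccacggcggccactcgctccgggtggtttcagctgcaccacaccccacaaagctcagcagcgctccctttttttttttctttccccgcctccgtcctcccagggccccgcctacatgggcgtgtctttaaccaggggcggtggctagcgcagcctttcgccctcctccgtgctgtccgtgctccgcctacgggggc
Idh2: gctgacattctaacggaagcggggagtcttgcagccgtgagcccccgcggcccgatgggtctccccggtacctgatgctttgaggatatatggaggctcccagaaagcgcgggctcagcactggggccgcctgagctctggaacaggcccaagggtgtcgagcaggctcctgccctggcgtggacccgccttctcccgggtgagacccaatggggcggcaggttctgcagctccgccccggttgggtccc
Ldha has 3 sites, starting 145, 48 and 34 bases before the start, of which the first 2 are CACGTG, and Pgk1 has 2, starting 150 and 131 bases before it. The Pdk1 and Idh2 windows have none, which says only that these letters are not in these windows. Ldha and Pdk1 have 2 windows each, and a window with ACGTG was shown wherever a gene had one. The Ldha window was taken by this rule and lies inside the gene's span, which starts at chr7:46842274. The only Idh2 window also lies inside its gene's span, which on the - strand starts at chr7:80118608. Sites in Ldha and none in Pdk1 or Idh2 are therefore not read as a contrast. With both strands searched, ACGTG was found in the windows of 13 of the 36 members with a window (36.1%), of 18.5% of all 27025 genes with one and of 26.8% of the 5942 such genes compared between gates. CACGTG was found for 3 members (8.33%; Ldha, Pfkm and Ogdh), 6.86% of all genes and 10.8% of the compared genes. GGGCGG, the letters of the GC box, was found for 66.7% of members and 66.6% of the compared genes.

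Pyruvate entry was led by Pdk1, whose kinase restrains pyruvate dehydrogenase. It had 37.1, 42.1, 36.5, 35.1, 87.3 and 65.8 CPM in ST2 Tregs, against 98.6, 166, 175, 164, 135 and 144 CPM in naive cells of hashtags 1 to 6. The groups did not overlap, and hashtags 5 and 6 were the highest among ST2 Tregs but not among naive cells. The log2 ratio was -1.81 (-2.01 to -1.62), with -2.26 to -0.60 over hashtags, and stayed between -2.17 and -1.47 under all alternatives. Pooled over hashtags, other Tregs had 62.4 CPM, Th1 cells without Ifng 65.6 CPM and Ifng Th1 cells 44.1 CPM, against 140 CPM in naive cells. The log2 ratio over naive cells was -1.17 (-1.41 to -0.94) for other Tregs and -1.10 (-1.24 to -0.95) for Th1 cells without Ifng, both called lower.

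Proliferating cells had 32.7, 30.6 and 27.0 CPM of Pdk1, against 48.8, 49.0 and 62.4 CPM in all other T cells of hashtags 1 to 3. This was the only member called lower there, at a log2 ratio of -0.77 (-1.28 to -0.33) on 40 UMIs. With each cell thinned to 2000 UMIs it was -0.20 and was not called.

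Mpc1, a subunit of the mitochondrial pyruvate carrier, was the only pyruvate entry gene called higher in proliferating cells. It had 164, 206 and 126 CPM in proliferating cells, against 93.7, 94.8 and 82.6 CPM in all other T cells, a log2 ratio of 0.87 (0.66 to 1.08). Its partner Mpc2 had 137, 142 and 120 CPM in proliferating cells of hashtags 1 to 3, with a log2 ratio of 0.23 (-0.00 to 0.45). In ST2 Tregs Mpc2 had 131, 121, 119, 127, 116 and 98.7 CPM and in naive cells 98.6, 87.8, 82.5, 105, 101 and 93.3 CPM, a log2 ratio of 0.36 that was higher in every hashtag but below 1.5-fold. Pdha1 and Pdhb, subunits of pyruvate dehydrogenase, were called in none of the 7 comparisons and lay between 57.6 and 74.7 CPM in all gates.

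In the TCA cycle, Idh2 moved most between the non-dividing gates. It encodes the mitochondrial isocitrate dehydrogenase that uses NADP. Its level was 7.43, 4.92, 7.94, 8.46, 24.2 and 26.3 CPM in ST2 Tregs, against 34.1, 39.0, 38.1, 32.8, 45.8 and 38.4 CPM in naive cells of hashtags 1 to 6. The groups did not overlap, although ST2 Tregs of hashtags 5 and 6 stood well above those of hashtags 1 to 4. The log2 ratio was -2.38 (-2.83 to -1.97) on 57 and 270 UMIs, with -3.08 to -0.38 over hashtags. With each cell thinned to 2000 UMIs it was -2.23 and not called.

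Other Tregs had 10.7, 10.2, 11.7, 13.3, 28.5 and 33.2 CPM of Idh2 and Th1 cells without Ifng 17.8, 18.7, 19.3, 15.2, 29.2 and 28.4 CPM. Hashtags 5 and 6 were the highest in both. Both gates were called lower than naive cells, at log2 ratios of -1.05 (-1.50 to -0.64) and -0.90 (-1.16 to -0.64). ST2 Tregs were called lower than other Tregs as well, at -1.33 (-1.89 to -0.78), beyond the -1.19 to -0.13 of the single hashtags. With a Foxp3 UMI required of Tregs, Idh2 was not called in other Tregs over naive cells (-1.20) or in ST2 Tregs over other Tregs (-0.93). The comparison of ST2 Tregs with other Tregs also lost its call with doublets kept (-0.57), with the stricter tag rule (-1.14) and with thinning (-1.46). The ratio of ST2 Tregs to Th1 cells without Ifng was -1.48 (-1.94 to -1.07) pooled but 0.04 in hashtag 6, and was not called. As a share of the UMIs of Idh2 and Idh1, the cytosolic enzyme of the same reaction, Idh2 was 51.8% (42.1 to 61.4) in ST2 Tregs, 72.2% (60.9 to 81.7) in other Tregs, 75.5% (61.7 to 86.2) in proliferating cells and 93.8% (90.3 to 96.3) in naive cells. Over hashtags it was 37.5% to 59.3% in ST2 Tregs of hashtags 1 to 4, which hold few of the naive cells, and 100% and 66.7% in ST2 Tregs of hashtags 5 and 6 on 5 and 4 Idh2 UMIs, against 85.7% to 100% in naive cells.

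A UMI of Idh2 was found in 2.83% of ST2 Tregs (median 3317.5 UMIs) and 15.2% of naive cells (median 3814 UMIs), and a UMI of Pdk1 in 12.7% of ST2 Tregs and 39.3% of naive cells. All T cell gates may express both genes, so no gate here gives the share that free RNA alone would leave.

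The NAD-dependent isocitrate dehydrogenase is built from Idh3a, Idh3b and Idh3g. Its catalytic subunit gene Idh3a had 47.3, 45.9, 48.4, 42.9, 38.8 and 26.3 CPM in ST2 Tregs, against 26.5, 19.5, 15.9, 26.2, 29.0 and 24.7 CPM in naive cells. It was higher in ST2 Tregs of every hashtag, although ST2 Tregs of hashtag 6 lay inside the naive range, at a log2 ratio of 0.78 (0.51 to 1.06). Idh3a was also called higher in Th1 cells without Ifng over naive cells (41.3 against 26.5 CPM pooled, 0.64). Idh3b and Idh3g were called in none of the 7 comparisons. In proliferating cells Idh3a had 76.9, 58.5 and 77.9 CPM, against 44.7, 44.4 and 42.3 CPM in all other T cells, a log2 ratio of 0.72 (0.39 to 1.02) that was -0.013 with each cell thinned to 2000 UMIs.

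The other TCA cycle calls were made in proliferating cells, with 1 exception. Cs, the citrate synthase that opens the cycle, had 98.1, 103 and 98.9 CPM in proliferating cells, against 59.6, 60.4 and 54.0 CPM in all other T cells, a log2 ratio of 0.78 (0.50 to 1.04). Of the succinate dehydrogenase genes, which link the cycle to the respiratory chain, the iron-sulphur subunit gene Sdhb had 195, 234 and 153 CPM in proliferating cells, against 120, 110 and 100 CPM in all other T cells. The membrane anchor genes Sdhc and Sdhd followed, with 96.5, 75.2 and 86.9 CPM of Sdhc and 99.8, 134 and 117 CPM of Sdhd in proliferating cells, against 47.7, 49.7 and 55.7 CPM of Sdhc and 54.5, 52.2 and 49.9 CPM of Sdhd in all other T cells. The log2 ratios were 0.81 (0.61 to 0.99) for Sdhb, 0.81 (0.51 to 1.08) for Sdhc and 1.12 (0.85 to 1.36) for Sdhd. The flavoprotein subunit gene Sdha was not called, at 0.18 (-0.10 to 0.43). The exception is Sdhd in other Tregs over naive cells, at 56.02 against 36.9 CPM (53.5, 71.1, 65.3, 53.3, 52.5 and 48.6 CPM in other Tregs and 41.7, 29.3, 22.2, 45.9, 40.9 and 32.4 CPM in naive cells), a log2 ratio of 0.61 that just passed the 1.5-fold threshold and was not called without hashtag 2 (0.56), hashtag 3 (0.53) or hashtag 6 (0.54).

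Fh1, the fumarase, had the highest ratio among the TCA cycle genes in proliferating cells. It had 70.3, 58.5 and 53.9 CPM in proliferating cells, against 25.6, 23.7 and 25.8 CPM in all other T cells of hashtags 1 to 3, a log2 ratio of 1.33 (0.96 to 1.66). The malate dehydrogenase genes Mdh1 (cytosolic) and Mdh2 (mitochondrial) were the most counted of the branch. Mdh1 had 309, 270 and 264 CPM in proliferating cells, against 171, 169 and 176 CPM in all other T cells, and Mdh2 had 290, 326 and 294 CPM, against 177, 203 and 172 CPM. The log2 ratios were 0.74 (0.58 to 0.89) and 0.72 (0.57 to 0.87). For Fh1, Mdh1 and Mdh2 each hashtag of the proliferating cells was above every hashtag of the other T cells. Ogdh and Dlst, of the oxoglutarate dehydrogenase complex, and Suclg1, of succinyl-CoA ligase, were not called there, at 0.06, 0.07 and 0.47.

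Proliferating cells hold more UMIs than the other gates, so they were also compared with the T cells outside that gate that have at least 5000 UMIs, an alternative chosen after the data were seen. Of the 35 members, 13 were then called, 12 higher and 1 lower, against 12.3% and 8.88% of all genes. Tpi1 was at a log2 ratio of 1.45, Fh1 at 1.06, Pgk1 at 0.92, Sdhd at 0.91, Gapdh at 0.86 and Ldha at 0.75, while Idh3a (0.44), Mdh1 (0.52) and Mdh2 (0.53) were no longer called.

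Across hashtags within a gate, members whose highest and lowest hashtag had intervals apart numbered 13 of 35 in Th1 cells without Ifng, 10 in other Tregs, 6 in ST2 Tregs, 4 in Ifng Th1 cells and 2 in naive cells. The same count was not made over all genes, so these numbers do not show that the members stand out. They also depend on how many cells each hashtag holds in a gate. Gapdh was among these members in all of these gates, with hashtag 6 the lowest in each, and Ldha in all but naive cells. In Th1 cells without Ifng, Pdk1 went the other way, with 110 CPM in hashtag 6 and 42.9 CPM in hashtag 4, and so did Ldhb, with 54.8 CPM in hashtag 6 and 21.5 CPM in hashtag 4. Suclg1 was highest in hashtag 5 in that gate, at 102 CPM, against 68.96 CPM in hashtag 3. Tissue, genotype, time and mouse cannot be told apart in these differences, since the hashtags carry none of these labels.

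Further genes of the pathways were read from 3 lists. Of 21 other glycolysis genes, 4 reached 10 CPM and 0 were called in any of the 7 comparisons. Of 23 other genes of pyruvate entry, the TCA cycle and its feeders, 16 reached 10 CPM. In proliferating cells over all other T cells 3 of these 16 (18.75%) were called higher, against 14.3% of all genes: the kinase gene Pdk3 at a log2 ratio of 1.01 (22.2 against 11.2 CPM), the aspartate aminotransferase gene Got2 at 0.82 (78.2 against 44.6 CPM) and Sucla2, of succinyl-CoA ligase, at 0.72 (49.1 against 30.1 CPM). In ST2 Tregs over naive cells 1 of 16 was called higher and 1 lower (6.25% each, against 10.7% and 2.56% of all genes), the glutamate dehydrogenase gene Glud1 at 1.18 (132 against 58.1 CPM) and the malic enzyme gene Me2 at -0.63 (48.0 against 74.6 CPM). Glud1 was also called higher in ST2 Tregs over Th1 cells without Ifng, at 0.69 (132 against 81.3 CPM). Its ratio within hashtags was 0.33 to 0.59, so the pooled ratio lay above that of every hashtag. It was the only gene of the 16 called there (6.25%, against 3.41% of all genes called higher).

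Of 9 genes of the hypoxia-inducible factor and Myc, which are known to drive glycolysis genes, 5 reached 10 CPM. Hif1a, the inducible subunit, was called higher over naive cells in ST2 Tregs (170 against 56.7 CPM, log2 ratio 1.58), in other Tregs (170 against 56.7 CPM, 1.59) and in Th1 cells without Ifng (113 against 56.7 CPM, with 0.60 to 1.19 over hashtags). In proliferating cells over all other T cells it was not called, at 165 against 147 CPM and a log2 ratio of 0.17. Myc was called higher in other Tregs over naive cells only (41.9 against 21.2 CPM, 0.98), and in proliferating cells it was 33.7 against 33.5 CPM. Over naive cells, 20% of the 5 were called higher in ST2 Tregs, 40% in other Tregs and 20% in Th1 cells without Ifng. The shares of all genes were 10.7%, 10.1% and 8.44%. Egln1, Mxi1 and P4ha1 were called in no comparison. Their log2 ratios were 0.39, 0.79 and -0.16 in ST2 Tregs over naive cells. In proliferating cells they were 0.31, -0.27 and -0.84.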

How the data were processed

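The deposited gene expression matrix holds raw UMI counts per gene and barcode, and the deposited hashtag matrix raw counts per tag and barcode. The expression matrix was made with cellranger 4.0.0 per the file headers, while Cell Ranger 6.0, Seurat 3 and mm10 are named in the submitters' processing notes. The kit was single cell 3′ version 3.1, per the labels' protocols. Of 22960 expression barcodes, 22952 also had hashtag counts. HTODemux, from Seurat 5.3.0 in R 4.3.3, set the tag of each barcode: 14879 single, 5804 doublet and 2269 negative. The filter asked for 500 or more genes and a mitochondrial share below 10%, which left 21236 barcodes, 13474 of them with 1 tag, and 12105 passed the T cell gate.

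Counts were summed per gate and hashtag and scaled to CPM (Python 3.11.15, numpy 2.4.6, pandas 2.3.3, scipy 1.17.1). A log2 ratio adds 0.5 to each count, and 7526 genes with at least 10 CPM that are not gate markers were compared. Gates were assigned in the order given, so a cell is in 1 gate. Because 3′ UMI counts depend on the gene, levels are not compared between genes except as shares across gates. The calling step was tested on simulated data. The alternatives changed the tag calls, cell filters, totals, depth, thresholds and hashtags used. The pooled design gives 1 library of each kind, so no p-value is given. The list of members is defined by function, but the members, other lists, gates and comparisons were chosen with earlier results of these data known. Members called in a comparison, and the 3 with the highest level in each branch, are given by hashtag for at least 1 comparison. The calls of Gapdh, Pdk1 and Idh3a in Th1 cells without Ifng over naive cells are given as pooled values. The same holds for Gapdh and Pdk1 in other Tregs over naive cells. Members under 10 CPM are given by name and CPM.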

Additional observations from a re-analysis of the deposited data

Results flagged for a closer look

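The hashtag matrix lists 4 tags besides the 6 used for the cells. Over all 149999 hashtag barcodes, Hash7 had 278 counts, Hash8 had 10 counts, Hash9 had 172 counts and Hash10 had 7 counts, each above the 3 counts that a count of 0 allows. None of the cells behind the values of the glycolysis and TCA cycle genes was assigned to these tags.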

How the results depend on the processing

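Of the members' counts of calls under the alternatives, 86 stayed within 1.5 times the reported count and 36 did not. The share of all genes called moved with the setting too, so a changed count is not in itself a result about the members. In ST2 Tregs over naive cells, 4.41% of all genes were called higher with no filter on low values and 14.8% with doublets kept. In ST2 Tregs over naive cells 8 members were called, and 4 with totals that leave out ribosomal protein and mitochondrial genes, 5 with the mean of per-cell CPM, 3 with each cell thinned to 2000 UMIs, 4 at 2-fold, 14 with a Foxp3 UMI required of Tregs (on 4 hashtags, with 18.2% of all genes called higher and 8.32% lower), 4 with median-of-ratios size factors and 8 to 10 with 1 hashtag left out. In ST2 Tregs over Th1 cells without Ifng it was 1, and 2 with cells of 1000 or more genes and a mitochondrial share below 5%, with the per-cell mean, with thinning and with no filter on low values, 0 at 2-fold and with the median over hashtags, and 1 to 2 with 1 hashtag left out. In other Tregs over naive cells it was 4, and 7 with a top tag of at least 10 counts and 3 times the next, 2 with the reduced totals, at 2-fold, with Foxp3 required and with median-of-ratios size factors, and 3 to 7 with 1 hashtag left out. In ST2 Tregs over other Tregs it was 2, and 0 with doublets kept and with Foxp3 required, 1 with the stricter tag rule, thinning, 30 CPM or 2-fold, and 2 whichever hashtag was left out. In Th1 cells without Ifng over naive cells it was 4, and 2 with either other scaling, 1 at 2-fold and 3 to 7 with 1 hashtag left out. In Ifng Th1 cells over Th1 cells without Ifng it was 0, and 1 with either other scaling and 0 to 1 with 1 hashtag left out. In proliferating cells it was 16, 6 at 2-fold, and 16 to 19 with 1 hashtag left out. Of all genes, 4.97% were higher and 5.29% lower at 2-fold. With 1 hashtag left out, 15.1% to 17% were higher and 15.7% to 17.7% lower. The TCA cycle median turned to -0.053 in ST2 Tregs over naive cells and to -0.059 in other Tregs over naive cells with the reduced totals, and to -0.044 in other Tregs over naive cells with median-of-ratios size factors. The glycolysis median of ST2 Tregs over other Tregs turned to -0.062 with the median over hashtags, and Idh3a in proliferating cells to -0.013 with thinning. The cause was not tested. Thinning left out 226 ST2 Tregs and 75 naive cells. The call of Pdk1 lower than in naive cells was kept by ST2 Tregs and other Tregs under 18 of 18 alternatives. No paired analysis was possible because all cells come from 1 library and the labels give no replicate numbers for its samples; gates were compared within hashtags, which pairs gates and not samples.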
